A study of Mus musculus with 4 samples.

Results

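The 8 genes Tyms, Shmt1, Shmt2, Mthfd1, Mthfd1l, Mthfd2, Mat2a and Ahcy encode core enzymes of the folate and methionine cycles. They were taken by symbol from the 33696 genes of the deposited count tables, and all 8 were present. Their transcripts were measured by single-cell RNA sequencing in marrow from lethally irradiated mice whose blood system was rebuilt with a 50:50 mix of CD45.2+ Tet2+/- and CD45.1+ Tet2+/+ marrow cells. The sort kept live CD45.2+ cells, so every group here is Tet2+/-, and no Tet2+/+ cells were analysed here. Treatment began 1 month after transplantation and lasted 7 months. B12+Butyrate mice received injections of 0.29 µg vitamin B12 at 2 per week and drank water with 100 mM sodium butyrate. B12 mice received the same injections and water with 100 mM sodium chloride, Butyrate mice received PBS injections and the butyrate water, and Control mice received PBS injections and the sodium chloride water. Each group is 1 library of frozen marrow pooled from 3 mice, with Kit+ and Kit- cells mixed 50:50 after sorting, and the ages and sexes of the mice were not given in the labels. Because n = 1 library per group, differences between treatments have no replicate check. The 4 libraries were instead used as blocks to compare cycling with non-cycling cells of a class, which takes any difference of that effect between treatments as error.

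The folate cycle carries one-carbon units on tetrahydrofolate and spends them on thymidylate, on purines and on methionine. Tyms, thymidylate synthase, uses methylene-tetrahydrofolate to make dTMP from dUMP for DNA synthesis. Shmt1 in the cytosol and Shmt2 in mitochondria load the one-carbon unit from serine and release glycine. Mthfd2 and Mthfd1l process the loaded folate in mitochondria and release formate, and Mthfd1 takes formate up again in the cytosol. In the methionine cycle Mat2a makes S-adenosylmethionine, the methyl donor for DNA and histone methylation, and Ahcy breaks down the S-adenosylhomocysteine left after a methyl transfer. Vitamin B12 is the cofactor of methionine synthase (Mtr), which joins both cycles, and dividing marrow precursors are the cells in which B12 or folate deficiency is classically seen.

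The promoters of 3 of the genes are shown because these genes gave the largest cycling difference (Tyms), the largest difference between cell cycle phases (Shmt1) and no called cycling difference outside the neutrophil lineage (Mat2a). Each runs from 250 bases before to 50 bases after the RefSeq start, on the minus strand of build GRCm38.p6, at chr5:30073576-30073875 for Tyms, chr11:60811216-60811515 for Shmt1 and chr6:72439507-72439806 for Mat2a. Capitals mark the E-box in Tyms and the reversed CCAAT box in Shmt1 and Mat2a.
Tyms: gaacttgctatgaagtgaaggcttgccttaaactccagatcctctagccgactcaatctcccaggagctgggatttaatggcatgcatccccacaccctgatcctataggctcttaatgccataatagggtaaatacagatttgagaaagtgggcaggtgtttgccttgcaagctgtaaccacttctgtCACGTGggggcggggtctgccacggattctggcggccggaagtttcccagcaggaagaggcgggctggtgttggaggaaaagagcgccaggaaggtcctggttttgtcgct
Shmt1: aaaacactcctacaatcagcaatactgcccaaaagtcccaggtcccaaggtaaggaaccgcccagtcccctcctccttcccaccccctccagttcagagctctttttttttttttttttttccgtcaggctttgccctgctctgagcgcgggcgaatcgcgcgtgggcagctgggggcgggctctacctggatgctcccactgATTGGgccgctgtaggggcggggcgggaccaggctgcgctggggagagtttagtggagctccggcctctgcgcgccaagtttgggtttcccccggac
Mat2a: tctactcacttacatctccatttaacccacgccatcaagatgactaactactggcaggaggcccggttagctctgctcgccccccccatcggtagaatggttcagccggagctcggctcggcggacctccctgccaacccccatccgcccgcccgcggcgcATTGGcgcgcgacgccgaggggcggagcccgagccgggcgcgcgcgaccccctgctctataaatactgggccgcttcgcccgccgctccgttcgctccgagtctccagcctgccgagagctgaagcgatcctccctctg

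All 8 genes had a promoter in the RefSeq table. On both strands, CACGTG was found in 1 of the 8 (Tyms, bases -61 to -56 from the start), against 7.15% of 32851 mouse promoters of this length. CCAAT was found in 5 of the 8, which were Mthfd1, Mthfd2, Shmt1, Mat2a and Ahcy, against 37.4% of all promoters. The E2F-type words TTTCGCGC, TTTGGCGC, TTTCCCGC and TTTGGCGG were found in none of the 8 and in 2.37% of all promoters. The word TGATGNAA, a form bound by C/EBP and ATF dimers, was in none of the 8 and in 3.97% of all promoters. No motif overlapped another in the 3 promoters shown, and a match or its lack describes these letters only.

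The 4 libraries held 34670 barcodes and 449267997 UMIs (counts of unique transcript molecules), with 95892397 to 123435815 UMIs per library. The 31209 barcodes kept passed minimums of 500 genes and 1000 UMIs and a maximum of 10% mitochondrial UMIs, with medians of 11583.5 to 12544.5 UMIs, and 127 barcode sequences were shared between pairs of libraries. Gates on marker UMIs placed 29298 cells in 7 classes. These were 16459 neutrophil-like, 6836 monocyte-like, 1250 GMP-like (granulocyte-monocyte progenitor), 265 HSC/MPP-like (stem and multipotent progenitor), 3222 B-lineage-like, 1075 T-like and 191 pDC-like (plasmacytoid dendritic) cells. A cell counted as cycling with 3 or more UMIs of 10 mitotic and cell cycle markers such as Mki67 and Top2a, as non-cycling with 0, and was left out of that comparison with 1 or 2. Levels are CPM, a gene's UMIs in the usual scaling to the total UMIs of the summed cells, and intervals are exact 95% Poisson intervals that cover counting error only. In such 3' data a level is not scaled to transcript length, so levels are compared between cells and not between genes. Whether a lower CPM reflects fewer expressing cells or less RNA per cell cannot be told apart in these sums.

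In neutrophil-like cells all 8 enzymes were higher in cycling than in non-cycling cells, by 0.81 (Mat2a) to 6.34 (Tyms) on the log2 scale. In monocyte-like cells 7 of 8 were higher, by 0.73 (Mthfd2) to 5.38 (Tyms), and Mat2a showed no called difference. Calls were common in this comparison. In neutrophil-like cells 79.4% of 13244 genes tested were called in either direction and 42.0% as higher, and in monocyte-like cells 63.4% of 12186 genes were called and 32.0% as higher. The members' median log2 difference was 3.70 in neutrophil-like and 1.43 in monocyte-like cells, beside 0.08 and 0.00 over all genes tested. Calls are edgeR's quasi-likelihood test with Benjamini-Hochberg adjustment over all genes, at an adjusted p under 0.05. The test returns no SE, so SE here is the size of the log2 difference divided by the square root of the test's F statistic. Its TMM scaling gives smaller differences than the CPM ratios in neutrophil-like cells. With total UMIs in place of TMM the median of all genes there was 0.45, 68.3% in place of 52.9% of called genes were higher, and the members differed by 1.18 (Mat2a) to 6.72 (Tyms).

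Tyms (ENSMUSG00000025747) showed the widest gap between cycling and non-cycling cells among the 8 genes in both myeloid classes. It had 101, 109, 98.02 and 94.9 CPM in cycling neutrophil-like cells of the B12+Butyrate, B12, Butyrate and Control libraries, against 0.425, 1.03, 0.709 and 1.81 CPM in their non-cycling cells. In monocyte-like cells it had 119.8, 128, 92.4 and 88.9 CPM in cycling cells, against 2.39, 2.57, 2.15 and 2.64 CPM in non-cycling cells of the same 4 libraries. Cycling and non-cycling values did not overlap in either class. The non-cycling values rest on UMIs found in 7, 14, 5 and 18 neutrophil-like and 13, 15, 13 and 20 monocyte-like cells. Control had the highest of them in both classes, but such counts do not resolve 2.64 CPM in Control from 2.57 CPM in B12 among monocyte-like cells. The log2 difference was 6.34 (SE 0.15, adjusted p = 4.57e-13, edgeR's quasi-likelihood test with Benjamini-Hochberg adjustment) in neutrophil-like cells, which placed Tyms at rank 82 of 13244 genes from the highest. The monocyte-like difference was 5.38 (SE 0.10, adjusted p = 2.57e-14, the same edgeR test), at rank 73 of 12186. A processed pseudogene, Tyms-ps, that is 98.7% identical over 154 bases of the transcript end is not among the genes of the count tables.

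Both serine hydroxymethyltransferases, which supply the one-carbon units, were several-fold higher in cycling cells. Shmt1 (ENSMUSG00000020534) had 7.25, 7.75, 7.98 and 7.996 CPM in cycling neutrophil-like cells of B12+Butyrate, B12, Butyrate and Control, against 0.364, 0.368, 0.354 and 0.345 CPM in their non-cycling cells. The cycling and non-cycling values lay far apart, and the cycling values varied little between libraries. The non-cycling values rest on UMIs found in only 6, 5, 3 and 4 cells, so their closeness does not measure the spread between libraries. Its log2 difference was 4.03 (SE 0.19) in neutrophil-like and 2.96 (SE 0.21) in monocyte-like cells, where cycling cells had 11.7, 11.2, 9.14 and 6.71 CPM and non-cycling cells 1.12, 1.76, 1.29 and 0.630 CPM. Shmt2 (ENSMUSG00000025403), the mitochondrial form, had 6.37, 5.82, 6.30 and 7.17 CPM in cycling neutrophil-like cells, against 0, 0.294, 0.236 and 0.604 CPM in non-cycling cells, which rest on 13 UMIs in all. Its log2 difference was 4.22 (SE 0.33) in neutrophil-like and 2.50 (SE 0.21) in monocyte-like cells, where cycling cells had 14.5 to 21.1 CPM and non-cycling cells 1.60 to 4.41 CPM. The 4 adjusted p-values of this pair, from edgeR's quasi-likelihood test with Benjamini-Hochberg adjustment, ran from 3.14e-10 to 1.30e-07. The last 500 bases of Shmt1 overlap Smcr8 on the opposite strand over 184 bases, and the sources used here do not say whether the counting used strand.

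**Figure D1:**
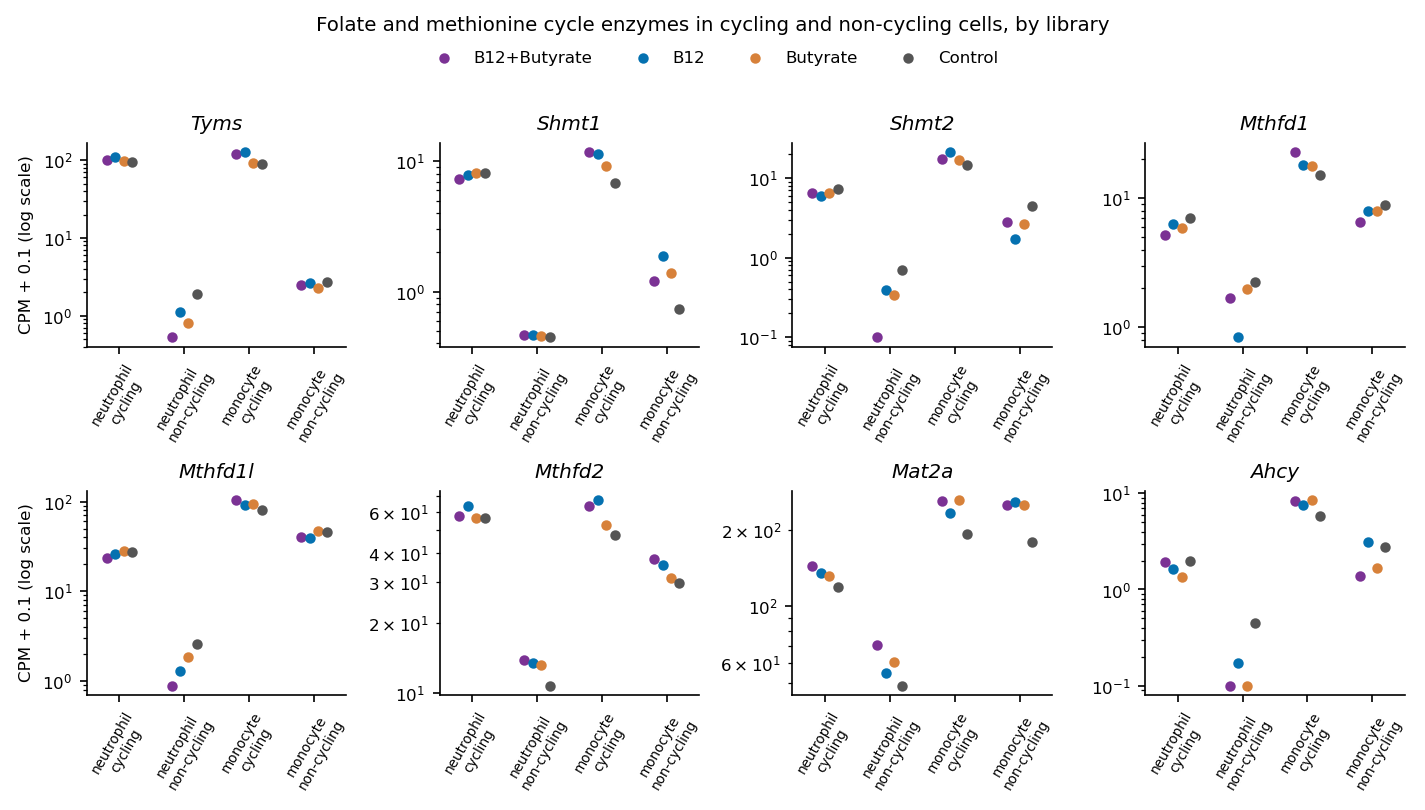
Level of each enzyme (CPM plus 0.1, log axis) in cycling and non-cycling neutrophil-like and monocyte-like cells, with 1 point per library and colour for the treatment. Cycling points lie above non-cycling points of the same class for all genes except Mat2a in monocyte-like cells, where they overlap.

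The mitochondrial and cytosolic enzymes that move one-carbon units on folate differed in how strongly they followed the cell cycle. Mthfd1l (ENSMUSG00000040675), the mitochondrial formyl-tetrahydrofolate synthetase, had 23.2, 25.9, 28.2 and 27.1 CPM in cycling neutrophil-like cells of B12+Butyrate, B12, Butyrate and Control, against 0.788, 1.18, 1.77 and 2.50 CPM in their non-cycling cells. In monocyte-like cells it had 103.5, 92.3, 92.9 and 79.3 CPM in cycling cells, against 39.7, 39.1, 47.3 and 46.1 CPM in non-cycling cells. Its transcript was thus nearly lost from non-cycling neutrophil-like cells and kept at 39.1 CPM or more in non-cycling monocyte-like cells. The log2 differences were 3.76 (SE 0.16) in neutrophil-like and 1.03 (SE 0.08) in monocyte-like cells. Mthfd2 (ENSMUSG00000005667), the mitochondrial dehydrogenase and cyclohydrolase, had 57.8, 63.5, 56.2 and 56.4 CPM in cycling neutrophil-like cells, against 13.8, 13.3, 12.995 and 10.6 CPM in non-cycling cells, a log2 difference of 1.83 (SE 0.06). In monocyte-like cells Mthfd2 had 63.2, 67.3, 52.3 and 47.6 CPM in cycling cells, against 37.7, 35.3, 31.2 and 29.5 CPM in non-cycling cells, a log2 difference of 0.73 (SE 0.07). For both genes the cycling and non-cycling values did not overlap in either class.

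Mthfd1 (ENSMUSG00000021048), the cytosolic enzyme that joins formate back to folate, had 5.07, 6.20, 5.72 and 6.92 CPM in cycling neutrophil-like cells of B12+Butyrate, B12, Butyrate and Control, against 1.58, 0.736, 1.89 and 2.16 CPM in their non-cycling cells. In monocyte-like cells it had 22.6, 17.8, 17.8 and 15.0 CPM in cycling cells, against 6.38, 7.86, 7.87 and 8.81 CPM in non-cycling cells. These values did not overlap either, and the log2 differences were 1.56 (SE 0.20) and 1.16 (SE 0.14). The 6 adjusted p-values of Mthfd1l, Mthfd2 and Mthfd1 in these 2 classes ran from 1.21e-11 to 8.15e-06 (edgeR's quasi-likelihood test with Benjamini-Hochberg adjustment). Among neutrophil-like cells the call of Mthfd1 was lost when every cell was thinned to 3000 UMIs, with a log2 difference of 0.58 and an adjusted p of 0.056 by the same edgeR test.

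The methionine cycle enzymes behaved differently from each other. Mat2a (ENSMUSG00000053907) had 144, 135, 131 and 119 CPM in cycling neutrophil-like cells of B12+Butyrate, B12, Butyrate and Control, against 70.5, 54.9, 60.1 and 48.8 CPM in their non-cycling cells. Its monocyte-like values were 258, 233, 261 and 192 CPM in cycling cells, against 249, 257, 249 and 178 CPM in non-cycling cells. The neutrophil-like values lay apart and the monocyte-like values overlapped, with Control lowest in every one of these 4 sets. The log2 difference of Mat2a was 0.81 (SE 0.05, adjusted p = 2.61e-09) in neutrophil-like cells and -0.03 (SE 0.05, adjusted p = 0.61) in monocyte-like cells, both from edgeR's quasi-likelihood test with Benjamini-Hochberg adjustment. Ahcy (ENSMUSG00000027597) had 1.84, 1.55, 1.27 and 1.90 CPM in cycling neutrophil-like cells, against 0, 0.0736, 0 and 0.345 CPM in non-cycling cells, which rest on 5 UMIs. Monocyte-like cells had 5.77 to 8.42 CPM in cycling cells, against 1.28 to 3.05 CPM in non-cycling cells, and the log2 differences were 3.65 (SE 0.53) and 1.71 (SE 0.24). Ahcy is uncertain, because 275 bases at its transcript end are identical to Gm4737, a gene with 481 UMIs in these tables against 1381 for Ahcy, and reads from this stretch cannot be told apart.

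Several other measures moved with the cycling state. Cycling neutrophil-like cells had medians of 18918.5 to 20663 UMIs per cell over the 4 libraries, against 6930 to 8598.5 in non-cycling cells, and cycling monocyte-like cells had 15569 to 18593.5, against 9335 to 10797. The 5 GMP markers (Mpo, Elane, Prtn3, Ctsg and Ms4a3) summed to 3871 to 5190 CPM in cycling and 49.98 to 199 CPM in non-cycling neutrophil-like cells, and to 767 to 1247 CPM in cycling and 62.9 to 222 CPM in non-cycling monocyte-like cells. The late neutrophil markers Retnlg and Mmp8 summed to 154 to 443 CPM in cycling and 8716 to 13128 CPM in non-cycling neutrophil-like cells. Cycling and maturation are thus not separated in these gates. In cells limited to a narrower stage (under 5 GMP marker UMIs per 10000, and for neutrophil-like cells under 10 of Retnlg and Mmp8), all 7 members tested were higher in cycling neutrophil-like cells and 7 of 8 in cycling monocyte-like cells, where 65.2% and 54.9% of genes tested were called and 34.1% and 27.7% as higher. There Tyms differed by 6.20 and 4.998 and Mthfd1 by 0.74 and 0.76 on the log2 scale. Shmt2 differed by 5.02 in neutrophil-like cells, in place of 4.22, and in monocyte-like cells Shmt2 differed by 1.87 in place of 2.50 and Shmt1 by 2.14 in place of 2.96. The neutrophil-like value of Shmt2 rests on almost no counts in non-cycling cells. All non-cycling neutrophil-like cells low in Retnlg and Mmp8 held 0, 2, 0 and 0 of its UMIs in B12+Butyrate, B12, Butyrate and Control. The value of 5.02 beside 4.22 therefore does not show a larger difference. Ahcy did not pass the count filter in neutrophil-like cells. With cells thinned to 3000 UMIs, Tyms differed by 4.05 in neutrophil-like and 4.61 in monocyte-like cells, Shmt1 by 1.83 in neutrophil-like cells, and 6 of 7 and 5 of 6 members tested were called higher, beside 4040 of 10106 and 2477 of 9828 of all genes tested. Thinning also moved cells between the states, because the state was gated again on the thinned counts.

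**Figure D2:**
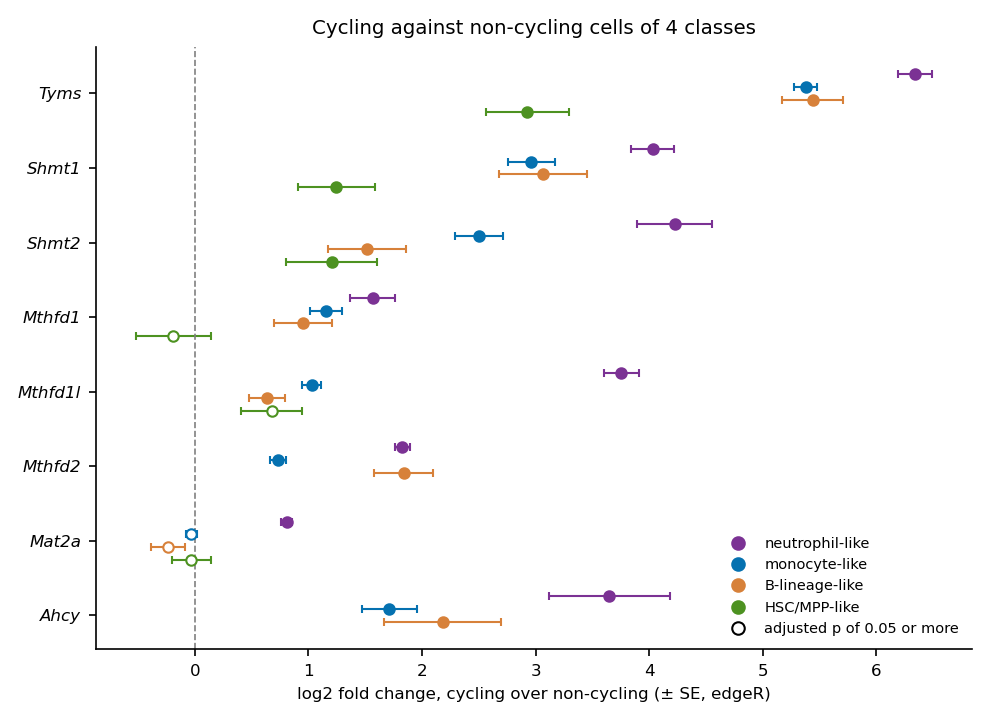
Log2 fold change of cycling over non-cycling cells for each enzyme in 4 cell classes (points, bars are ± 1 SE derived from edgeR's F statistic), with open points where the adjusted p was 0.05 or more. Tyms lies farthest right in every class, Mat2a is called in neutrophil-like cells and in none of the other 3 classes, and 2 genes have no HSC/MPP-like point because they did not pass the count filter.

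Outside the myeloid classes, too few cells cycled for all 4 libraries to enter. B-lineage-like cells were fitted without the B12 library, which had 13 cycling cells, and HSC/MPP-like cells without the B12+Butyrate library, which had 5 non-cycling cells. In B-lineage-like cells 7 of 8 members were higher in cycling cells, where 43.2% of 10228 genes tested were called and 23.2% as higher. Tyms had 177, 153 and 127 CPM in cycling cells of B12+Butyrate, Butyrate and Control, against 2.74, 2.68 and 5.07 CPM in non-cycling cells, a log2 difference of 5.44 (SE 0.27). Shmt1 (3.07), Ahcy (2.19), Mthfd2 (1.84), Shmt2 (1.52), Mthfd1 (0.95) and Mthfd1l (0.64) were also higher on the log2 scale, and Mat2a was at -0.23 (adjusted p = 0.22, edgeR's quasi-likelihood test with Benjamini-Hochberg adjustment). Without a filter on low counts Mat2a was called lower in cycling B-lineage-like cells, at -0.41. With cells that Scrublet called as doublets left out 3 of 6 members tested were called, and with cells thinned to 3000 UMIs 1 of 6 (Tyms), beside 1513 of 9867 and 844 of 8625 of all genes tested called higher in these fits. Without the Butyrate library the call of Ahcy was lost (1.74, adjusted p = 0.10, the same edgeR test). In cycling B-lineage-like cells the 10 neutrophil markers summed to 304 to 1633 CPM, against 722 to 1185 CPM in non-cycling cells, and their part in the result was not tested. Median UMIs per cell were 12800.5, 20816.5 and 9683 in cycling B-lineage-like cells of B12+Butyrate, Butyrate and Control. Their non-cycling cells had 5107, 4760 and 4769.5, and the part of depth alone was not tested.

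In HSC/MPP-like cells 6 of 8 members passed the count filter and 3 were higher in cycling cells, where 21.0% of 6539 genes tested were called and 10.9% as higher. Tyms had 134, 132 and 98.5 CPM in cycling cells of B12, Butyrate and Control, against 34.3, 6.09 and 11.9 CPM in non-cycling cells. Shmt1 had 57.1, 65.9 and 38.9 CPM in cycling cells of these libraries, against 21.4, 30.4 and 15.9 CPM in non-cycling cells. The non-cycling stem-like cells thus had more Shmt1 than non-cycling cells of the myeloid classes. They also had more RNA of 9 S phase markers, at 155 to 313 CPM. Non-cycling neutrophil-like cells had 12.4 to 23.7 CPM of these markers and non-cycling monocyte-like cells 34.0 to 40.3 CPM. The part of S phase RNA in the Shmt1 level was not tested. The log2 differences were 2.93 (SE 0.37) for Tyms, 1.25 (SE 0.34) for Shmt1 and 1.21 (SE 0.40, adjusted p = 0.043, edgeR's quasi-likelihood test with Benjamini-Hochberg adjustment) for Shmt2. Those of Mthfd1l (0.68), Mthfd1 (-0.19) and Mat2a (-0.03) did not pass the test. The call of Shmt2 was lost without any 1 of the 3 libraries and that of Shmt1 without B12, and Mthfd1l was called without B12 (0.97). The 5 GMP markers summed to 1482 to 2037 CPM in cycling and 459 to 685 CPM in non-cycling HSC/MPP-like cells, and the 7 HSC markers to 1548 to 1960 CPM in cycling and 3803 to 4447 CPM in non-cycling cells. Median UMIs per cell were 22033.5, 25406.5 and 20815.5 in cycling HSC/MPP-like cells of B12, Butyrate and Control. Their non-cycling cells had 9669, 13678 and 10528, and the part of depth alone was not tested.

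The cycling difference itself was smaller in monocyte-like than in neutrophil-like cells for 7 of 8 members, in a comparison that called 62.6% of 13519 genes and 28.2% as larger in monocyte-like cells. The monocyte-like minus neutrophil-like difference of the log2 values was -2.74 (SE 0.21, adjusted p = 7.58e-09) for Mthfd1l, -1.11 (SE 0.09, adjusted p = 1.66e-08) for Mthfd2 and -0.85 (SE 0.07, adjusted p = 1.30e-08) for Mat2a, by edgeR's quasi-likelihood test of the interaction with Benjamini-Hochberg adjustment. These 3 were called in all 8 fits made, which changed the tool, the scaling, the depth per cell or the libraries. Ahcy (-1.93), Shmt2 (-1.72), Shmt1 (-1.07) and Tyms (-0.97) were called in 5, 6, 4 and 4 of the 8 fits. In non-cycling neutrophil-like cells UMIs of Ahcy were found in only 0 to 4 cells per library and of Shmt2 in 0 to 7. Shmt1 was found there in 3 to 6 cells per library and Tyms in 5 to 18. The sizes of these differences rest on such low counts. With cells thinned to 3000 UMIs Tyms was at 0.55 (adjusted p = 0.089) and Mthfd1 at 0.40 (adjusted p = 0.41), in place of -0.97 and -0.42, by the same edgeR test. Over all genes the median was -0.11, and with total UMIs in place of TMM it was -0.42, with 26.3% in place of 45.0% of called genes larger in monocyte-like cells and Mthfd1 called at -0.73. Without the B12+Butyrate library 4 members were called, which left out Shmt2, Ahcy and Tyms. The call of Shmt1 was lost without B12 or without Butyrate, that of Ahcy also without B12 and that of Tyms also without Butyrate.

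Among cycling cells, S phase cells (more UMIs of 9 S phase markers than of 9 G2/M markers) were set against G2/M cells. All 8 members were higher in S phase in neutrophil-like cells, 7 of 8 in monocyte-like cells and 5 of 8 in GMP-like cells. The shares of all genes called were 64.0%, 54.3% and 13.2% in these 3 classes, and 31.9%, 27.2% and 7.46% were called higher in S phase. Over all genes the median log2 difference in neutrophil-like cells was 0.14 with total UMIs in place of TMM, which called 66.9% in place of 49.9% of called genes as higher.

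Shmt1 stood highest among the members in both maturing classes. It had 13.6, 13.7, 14.6 and 13.9 CPM in S phase neutrophil-like cells of B12+Butyrate, B12, Butyrate and Control, against 2.51, 2.86, 1.92 and 3.62 CPM in G2/M cells. In monocyte-like cells it had 21.4, 20.9, 21.1 and 14.9 CPM in S phase, against 3.44, 3.28, 1.98 and 3.02 CPM in G2/M cells. The log2 differences were 2.19 (SE 0.12, adjusted p = 1.15e-11) at rank 43 of 13035 genes and 2.69 (SE 0.18, adjusted p = 2.81e-10) at rank 26 of 11425 genes, by edgeR's quasi-likelihood test with Benjamini-Hochberg adjustment. In GMP-like cells the difference was 0.70 (SE 0.12), with 35.7 to 47.4 CPM in S phase and 20.4 to 35.3 CPM in G2/M cells.

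Tyms had 153, 158, 144 and 135 CPM in S phase neutrophil-like cells of B12+Butyrate, B12, Butyrate and Control, against 62.4, 68.5, 55.8 and 63.0 CPM in G2/M cells. Its transcript therefore stayed abundant in G2/M cells, unlike in non-cycling cells. The log2 difference of Tyms was 1.10 (SE 0.04) in neutrophil-like, 1.53 (SE 0.07) in monocyte-like and 0.49 (SE 0.09) in GMP-like cells. Mthfd1 had 9.44 to 11.0 CPM in S phase and 1.66 to 3.91 CPM in G2/M neutrophil-like cells, a log2 difference of 1.97 (SE 0.14), and 1.73 (SE 0.14) in monocyte-like cells. Shmt2 differed by 1.69 and 1.20, Mthfd1l by 1.18 and 0.99 and Mthfd2 by 0.37 and 0.69 on the log2 scale in neutrophil-like and monocyte-like cells. Mat2a differed least, by 0.19 and 0.18, and was called in none of the 3 classes when the library block was left out. Ahcy differed by 0.85 in neutrophil-like cells and by 0.37 in monocyte-like cells, where it did not pass the test (adjusted p = 0.082, edgeR's quasi-likelihood test with Benjamini-Hochberg adjustment). In GMP-like cells Mthfd1l (0.59), Mthfd1 (0.47) and Mat2a (0.21) were also called, and Mthfd2 (0.21), Shmt2 (0.09) and Ahcy (0.09) were not. The GMP-like call of Mthfd1 was lost without Control (0.41), and that of Mat2a without B12+Butyrate, without B12 or without Butyrate. S phase monocyte-like cells had medians of 18388.5 to 21824 UMIs, against 13696 to 15445 in G2/M cells, and S phase neutrophil-like cells had 19481 to 21388, against 18523 to 20110 in G2/M cells.

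**Figure D3:**
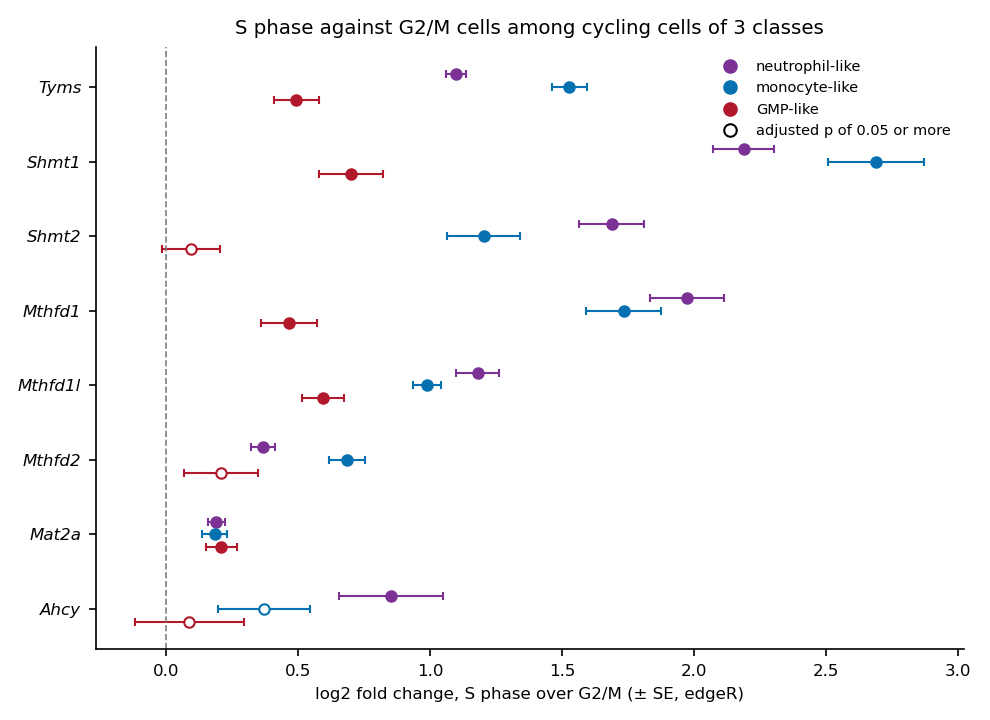
Log2 fold change of S phase over G2/M cells for each enzyme in cycling cells of 3 classes (points, bars are ± 1 SE derived from edgeR's F statistic), with open points where the adjusted p was 0.05 or more. Shmt1 and Mthfd1 lie farthest right in neutrophil-like and monocyte-like cells, and GMP-like cells lie nearer to 0 for every gene except Mat2a.

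Within cycling cells the enzymes fell into separate patterns along the neutrophil lineage, described here without a test because the stages were cut after the marker values had been seen. Cycling neutrophil-like cells were split at 50 GMP marker UMIs per 10000 and non-cycling cells at 10 UMIs of Retnlg and Mmp8 per 10000, with GMP-like cycling cells set before them. Shmt1 ran from 33.3 to 44.6 CPM in cycling GMP-like cells, 17.4 to 21.8 CPM in cycling neutrophil-like cells with high primary granule RNA, 4.58 to 5.68 CPM in those with low primary granule RNA, and 0.225 to 0.466 CPM in both non-cycling stages. Shmt2 had 39.8 to 43.2, 12.6 to 16.4, 4.06 to 5.16 and 0 to 0.980 CPM in the same order, and Mthfd1 had 39.9 to 43.3, 13.4 to 16.8, 3.54 to 4.28 and 0.551 to 2.24 CPM. For these 3 genes the ranges over the 4 libraries did not overlap between the cycling stages or between cycling and non-cycling cells, and both non-cycling stages, given here as 1 range, overlapped. The non-cycling values of Shmt1 and Shmt2 rest on 0 to 7 UMIs per library and stage, mostly under the floor of 3 UMIs. Mthfd1l (107 to 115, 39.7 to 45.5, 20.1 to 25.1 and 0.763 to 3.38 CPM) and Ahcy (12.1 to 13.6, 3.07 to 5.03, 0.941 to 1.32 and 0 to 0.420 CPM) followed the same order, again with overlap between the non-cycling stages and no other.

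Tyms and Mthfd2 did not follow that order. Tyms had 91.1 to 102 CPM in cycling GMP-like cells, 101 to 109.8 CPM in cycling neutrophil-like cells with high primary granule RNA and 93.4 to 109 CPM in those with low primary granule RNA, which overlap, and 0.327 to 2.93 CPM in non-cycling cells. Mthfd2 had 33.5 to 39.2 CPM in cycling GMP-like cells, 34.1 to 42.6 CPM in the stage with high and 60.2 to 68.7 CPM in the stage with low primary granule RNA, and then 16.5 to 21.7 and 6.997 to 10.8 CPM in the non-cycling stages with low and high Retnlg and Mmp8. It was thus highest in late cycling neutrophil-like cells in all 4 libraries. Mat2a had 223 to 280 CPM in cycling GMP-like cells, 141 to 177 and 113 to 138 CPM in the cycling neutrophil-like stages, and 62.2 to 81.1 and 40.4 to 62.1 CPM in the non-cycling stages, in falling order along the stages. These ranges did not overlap, but some lay within counting error. The cycling stages came closest at 141 (134 to 148) CPM in Control and 138 (135 to 142) CPM in B12+Butyrate. The non-cycling stages came closest at 62.2 (55.1 to 70.0) CPM in Control and 62.1 (57.1 to 67.4) CPM in B12+Butyrate. GMP-like cells had median depths of 27857.5 to 34672 UMIs when cycling, and the late non-cycling neutrophil-like stage 5617 to 6562. The 10 neutrophil markers took 3793 to 4553 CPM in cycling GMP-like cells. They took 294290 to 323050 CPM in cycling and 353670 to 366260 CPM in non-cycling neutrophil-like cells, which lowers the CPM of all other genes there. The part of this share in the falling orders was not tested.

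**Figure D4:**
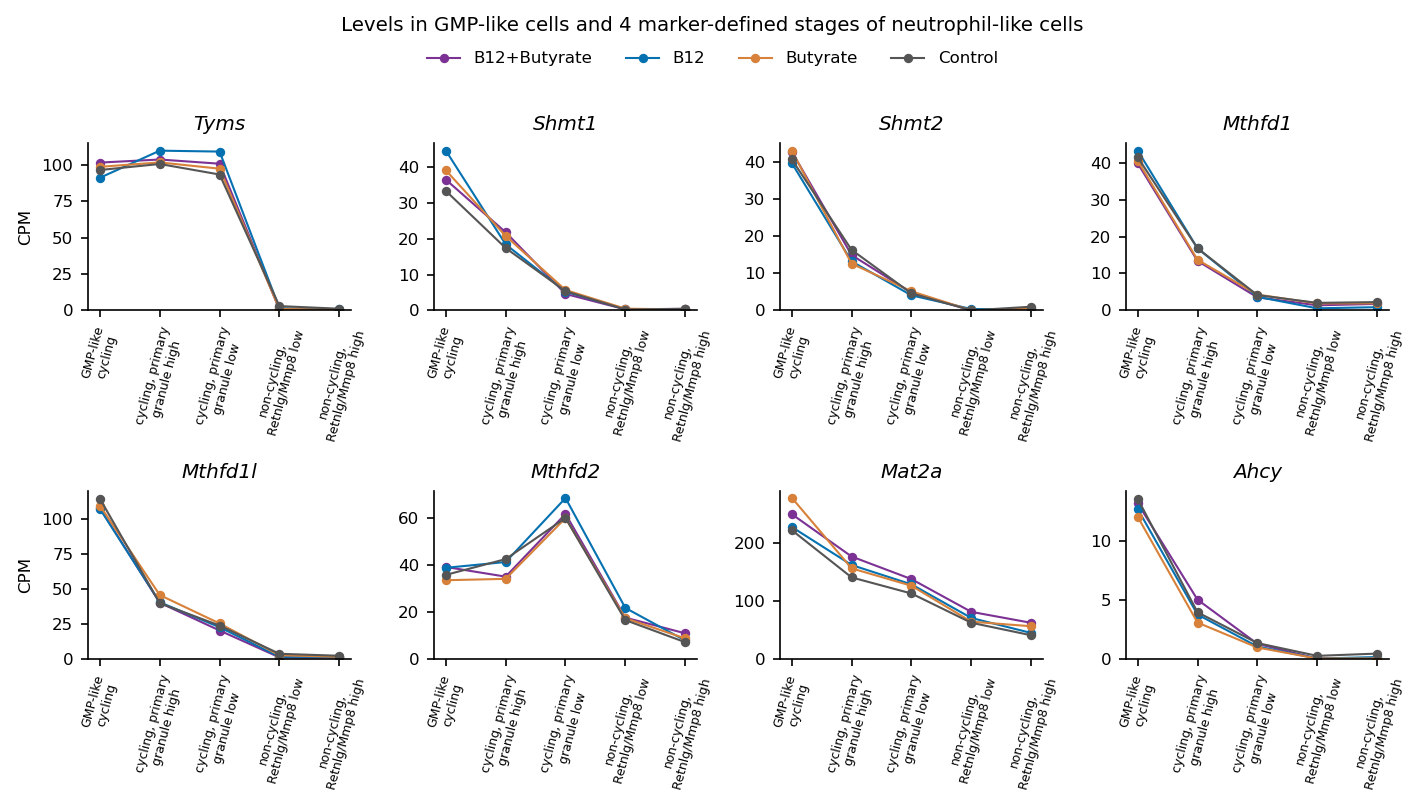
Level (CPM) of each enzyme in cycling GMP-like cells and in 4 marker-defined stages of neutrophil-like cells, with 1 line per library. Tyms stays near 100 CPM until the cells stop cycling, Mthfd2 peaks in the cycling stage with low primary granule RNA, and the other 6 genes are highest in GMP-like cells.

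Over all cells of a class, whatever their cycling state, the order of the classes differed between the genes. The cycling share was 92.5% to 95.7% in GMP-like, 33.8% to 61.3% in HSC/MPP-like and 50.7% to 58.9% in neutrophil-like cells. Monocyte-like cells had 32.5% to 41.0% and B-lineage-like cells 2.66% to 3.80%. Tyms averaged 95.01 ± 4.28 CPM in GMP-like cells (SD over the 4 libraries, as for all means in this paragraph), 80.0 ± 7.77 in HSC/MPP-like and 76.0 ± 5.47 in neutrophil-like cells. It averaged 56.4 ± 11.6 CPM in monocyte-like, 17.3 ± 4.32 in B-lineage-like and 10.7 ± 1.40 in T-like cells. It varied widely in the few pDC-like cells (33.3 ± 36.3), and GMP-like and HSC/MPP-like cells did not overlap. Shmt1 (47.3 ± 13.04 and 38.3 ± 4.46), Mthfd1 (42.0 ± 12.04 and 41.0 ± 1.58) and Shmt2 (36.8 ± 13.02 and 41.1 ± 1.47) averaged highest in HSC/MPP-like and GMP-like cells, which overlapped each other and lay above every other class. Neutrophil-like cells had the lowest Shmt2 (4.92 ± 0.471) and the lowest Mat2a (115 ± 8.43), below every other class without overlap. The 10 neutrophil markers alone took at least 294290 CPM in cycling and 353670 CPM in non-cycling neutrophil-like cells. This share of the total lowers the CPM of every other gene there, and its part in the order of the classes was not tested. Mthfd1l averaged 109 ± 3.63 CPM in GMP-like cells and 20.1 ± 2.33 in neutrophil-like cells, and also stood at 95.4 ± 15.7 in T-like and 79.2 ± 2.26 in B-lineage-like cells, of which few cycled. Mthfd2 was the exception, with 47.4 ± 3.06 CPM in neutrophil-like and 45.4 ± 5.66 in monocyte-like cells, which overlapped each other and lay above GMP-like cells (36.0 ± 2.79). Mat2a was highest in pDC-like (364 ± 20.9) and B-lineage-like cells (298 ± 41.5), which overlapped. Ahcy averaged 12.9 ± 0.780 CPM in GMP-like cells, 9.55 ± 3.87 in HSC/MPP-like cells and 4.95 ± 0.385 or less in the other classes.

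Genes of pathways around the 8 enzymes were counted in the same fits, in which 42.0% of all genes tested were called higher in cycling neutrophil-like and 32.0% in cycling monocyte-like cells, with all-gene medians of 0.08 and 0.00. Of 7 genes of thymidylate and dUMP supply, 6 were higher and 1 was lower in both neutrophil-like and monocyte-like cells, with median log2 differences of 3.15 and 2.33. Dut, which removes dUTP and yields dUMP, differed by 5.60 and 3.94, and Tk1, the salvage thymidine kinase, by 5.08 and 4.35. The exception, named after its values were seen, was Tk2, the mitochondrial thymidine kinase, at -1.11 and -0.69. All 6 purine synthesis genes were higher in both classes (medians 2.01 and 1.18), led by Paics (3.53 and 1.35), Ppat (3.51 and 1.497) and Atic (2.25 and 1.16), and Atic spends formyl-tetrahydrofolate. All 3 serine synthesis genes were higher (medians 3.19 and 2.28), with Phgdh at 3.19 and 3.89, Psat1 at 3.20 and 2.28 and Psph at 2.00 and 0.79. In glycine cleavage 2 of 4 genes were tested and both were higher, Gcsh by 1.43 and 0.35 and Dld by 0.22 and 0.39.

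Genes of folate uptake and side reactions were called in both directions. Of 14 genes, 8 were tested in neutrophil-like cells with 4 higher and 2 lower, and 9 in monocyte-like cells with 3 higher and 2 lower (medians 0.15 and -0.13). Over all genes tested 42.0% and 32.0% were called higher in these 2 classes, near the shares in this list, with medians of 0.08 and 0.00. The reduced folate carrier Slc19a1 differed by 2.75 and 0.91 and Fpgs, which traps folate in the cell, by 1.56 and 0.67, while Mthfs was lower by -1.17 and -0.64. Of 15 genes of the methionine cycle and polyamine branch, 11 were tested, with 7 higher and 2 lower in neutrophil-like and 5 higher and 3 lower in monocyte-like cells (medians 1.17 and 0.32). The largest were Mtrr, which keeps methionine synthase active, at 3.52 in neutrophil-like cells and 0.37 without a call in monocyte-like cells, and the polyamine enzymes Srm (3.33 and 0.97) and Sms (2.95 and 1.21). Named after their values were seen, Mtr, the B12-dependent methionine synthase, was higher by 1.31 in neutrophil-like cells and lower by -0.30 in cycling monocyte-like cells, and Mat2b, the regulatory partner of Mat2a, was lower at -0.46 and -0.37. All log2 differences and calls in these lists come from edgeR's quasi-likelihood test with Benjamini-Hochberg adjustment over all genes.

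Across 40 sums of class, cycling state and library, the genes with the most similar pattern differed between members, as a description of sums that share libraries and depth. By Pearson's r of log2(CPM + 10) among 6798 genes at a mean of 20 CPM or more, Tyms was most like Cenph (0.98), Fignl1 (0.98) and Brip1 (0.98). Shmt2 was most like Lyar (0.95), Srm (0.94) and Adsl (0.94), Mthfd1 like Ftsj3 (0.95), Gpatch4 (0.95) and Hspd1 (0.94), and Mthfd1l like Ddx27 (0.96), Immt (0.96) and U2surp (0.95). Shmt1 was most like Ruvbl2 (0.93), Syce2 (0.93) and Ppa1 (0.92), Ahcy like Lyar (0.88), Nup62 (0.88) and Apex1 (0.88), and Mthfd2 like Racgap1 (0.88), Rer1 (0.88) and Cox6a1 (0.87). Mat2a was most like the mitochondrial transcripts mt-Co1 (0.94), mt-Nd4 (0.94) and mt-Co2 (0.93). Between members r was highest for Shmt1 with Shmt2 (0.88), Shmt2 with Ahcy (0.88) and Mthfd1 with Mthfd1l (0.86), and lowest for Mthfd2 with Mthfd1 (0.01) and with Mat2a (0.04).

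Between treatments no test was possible, and a member was called where its log2 ratio of CPM with 10 added was 0.5 or more in size and one library had at least 10 CPM. Of the 48 pairs of member and class (pDC-like cells were not compared), 37, 37, 38 and 36 had 10 CPM and could be called for B12 against Control, Butyrate against Control, B12+Butyrate against B12 and B12+Butyrate against Butyrate. Of these, 2, 2, 3 and 4 were called in the same order. All lay in HSC/MPP-like cells, with 31, 65, 89 and 80 cells in B12+Butyrate, B12, Butyrate and Control, or in T-like cells. In HSC/MPP-like cells 11.2%, 9.09%, 17.6% and 13.2% of the genes with 10 CPM in one library (6944 to 9552 genes per class and comparison, markers left out) were past this size in the 4 comparisons in that order, and in T-like cells 14.8%, 5.77%, 14.6% and 8.96%. Comparisons that share a library, as both with Control do, are not independent.

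In HSC/MPP-like cells Mthfd2 had 39.1 (26.0 to 56.6), 23.2 (14.9 to 34.5), 18.4 (12.8 to 25.6) and 11.8 (6.43 to 19.7) CPM in B12+Butyrate, B12, Butyrate and Control. The interval of B12+Butyrate overlapped that of B12 and not those of Butyrate and Control. Its log2 ratios were 0.61 for B12 against Control, 0.57 for B12+Butyrate against B12 and 0.79 for B12+Butyrate against Butyrate. Mthfd1 had 55.9 (39.9 to 76.1), 47.3 (35.0 to 62.6), 36.3 (28.2 to 45.9) and 28.6 (19.8 to 39.9) CPM in the same order, with log2 ratios of 0.57 for B12 against Control and 0.51 for B12+Butyrate against Butyrate. Shmt2 had 55.9 (39.9 to 76.1) CPM in B12+Butyrate, against 30.9 (21.1 to 43.6) CPM in B12 and 33.7 (25.9 to 43.0) CPM in Butyrate, with log2 ratios of 0.69 and 0.59, and all these intervals overlapped. Shmt1 had 48.9 (39.5 to 59.9) CPM in Butyrate and 31.1 (21.9 to 42.9) CPM in Control (log2 ratio 0.52), and Ahcy, on 10 and 7 UMIs, had 14.0 CPM in B12+Butyrate and 6.76 CPM in B12 (0.52). The cycling share of HSC/MPP-like cells was 61.3% (42.2 to 78.2%), 33.8% (22.6 to 46.6%), 47.2% (36.5 to 58.1%) and 45.0% (33.8 to 56.5%, exact binomial intervals) in B12+Butyrate, B12, Butyrate and Control, and its part in these ratios was not tested here for single genes. In T-like cells Mthfd2 had 17.8 (12.1 to 25.2) CPM in Butyrate and 33.7 (26.2 to 42.8) CPM in Control, a log2 ratio of -0.66, and Mthfd1 had 29.8 (20.7 to 41.4) CPM in B12+Butyrate and 15.5 (10.2 to 22.5) CPM in Butyrate, a log2 ratio of 0.64.

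In the deeply sampled neutrophil-like, monocyte-like and GMP-like classes and in B-lineage-like cells no member that could be called reached the size in any of the 4 comparisons. In neutrophil-like cells these were Mthfd2, Mthfd1l, Mat2a and Tyms, and the other 4 members lay under 10 CPM in every library. Shmt1 and Ahcy were under 10 CPM in monocyte-like and B-lineage-like cells too, as was Shmt2 in monocyte-like cells in 2 of the 4 comparisons. For B12 against Control 0.690%, 0.431%, 0.586% and 4.53% of genes with 10 CPM were past it in these 4 classes in the order named, and for Butyrate against Control 1.12%, 1.45%, 1.04% and 1.47%. For B12+Butyrate against B12 the shares were 0.173%, 0.741%, 0.223% and 2.69%, and against Butyrate they were 0.100%, 0.345%, 0.725% and 0.975%. The largest member ratios in monocyte-like cells were those of Tyms and Mat2a. Tyms had 72.4 (68.9 to 76.1) CPM in B12 and 49.98 (47.5 to 52.6) CPM in Control, a log2 ratio of 0.46, which was 0.48 within cycling cells, at 128 and 88.9 CPM. Mat2a had 239 (233 to 246) CPM in B12, 253 (246 to 260.1) CPM in Butyrate and 185 (181 to 190.4) CPM in Control, with log2 ratios of 0.35 and 0.43 against Control, and 252 (244 to 259.7) CPM in B12+Butyrate. Control thus had the lowest Mat2a of the 4 monocyte-like sums, in cycling and in non-cycling cells, and the other 3 libraries lay within 239 to 253 CPM. In neutrophil-like cells the largest ratio was that of Mthfd1l for B12+Butyrate against Butyrate, at -0.26, with 16.9 (15.9 to 17.9) and 22.1 (20.8 to 23.5) CPM.

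**Figure D5:**
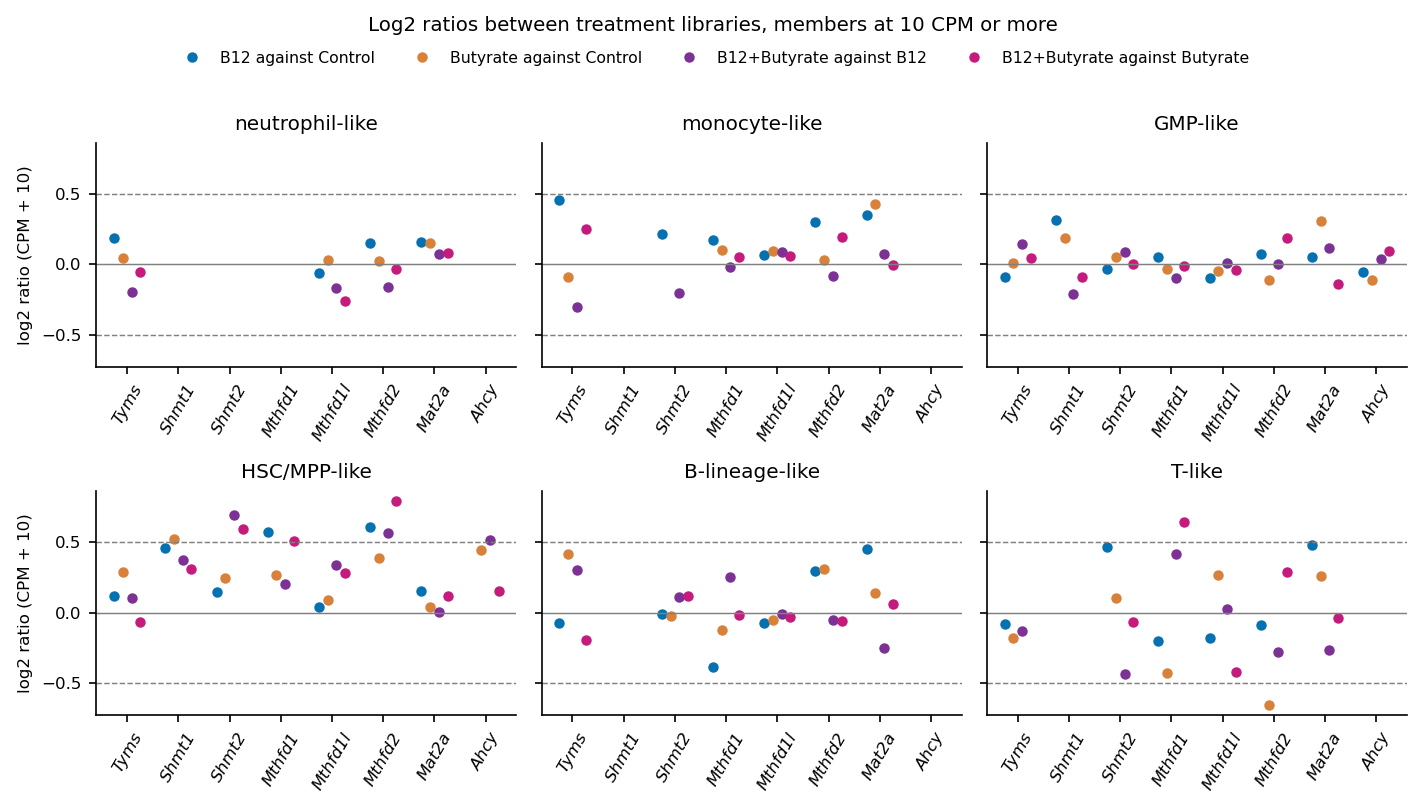
Log2 ratios of CPM (10 added) between treatment libraries for each enzyme in 6 cell classes, shown where 1 of the libraries has at least 10 CPM, with dashed lines at the size for a call. No point passes the lines in neutrophil-like, monocyte-like, GMP-like or B-lineage-like cells, and the points past them lie in HSC/MPP-like and T-like cells.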

How the data were processed

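Single-cell RNA sequencing of 4 marrow libraries (10x Genomics 3' v3.1) was used as deposited. The values are raw UMI counts per gene and barcode that the authors made against GRCm39, per the submitters' processing notes. The file headers give the software as Cell Ranger 7.1.0. The sources used here do not say whether introns were counted. Depth was 95892397 to 123435815 UMIs per library.

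From these counts, barcodes were filtered, cells were gated on marker UMIs per 10000 (cells in the gates of several classes were left out, 842 in all), and UMIs were summed per library, class and state. The members, gene lists and comparisons were chosen with earlier results of these data known, and gate cutoffs and stage limits after the markers' distributions were seen. Sums needed at least 20 cells in each state. Tests used edgeR 4.0.16 (R 4.3.3) with filterByExpr, TMM factors and the library as a block. The fits were also run on simulated counts in which a small share of genes, all well counted, was changed. That run does not cover genes with few UMIs or comparisons that call most genes. p-values measure the spread between 4 differently treated libraries. Alternatives were DESeq2 1.42.0, total UMIs, no filter, no block, other gates, thinning to 3000 UMIs, doublet removal with Scrublet (scanpy 1.11.5, calling 369 to 613 cells per library), stricter barcode filters and leaving out each library. No doublets were removed otherwise. Thinned cells kept their class, and their cycling state and phase were gated again on the thinned counts. Copies of the last 500 bases of each transcript were searched with BLAST+ 2.17.0+ at 98% identity over 90 bases or more. Named genes were the members, up to 3 called genes of largest change per list, and the 3 most similar genes per member. The values of 1 listed gene are not reported here. Promoters come from the RefSeq table of GRCm38.p6, and no coordinates were converted.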

Additional observations from a re-analysis of the deposited data

Results flagged for a closer look

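For 7 of the 8 enzymes the cycling effect itself differed between the 2 myeloid classes by the interaction term of edgeR's quasi-likelihood test with Benjamini-Hochberg adjustment over all genes, a comparison in which 62.6% of genes were called. The monocyte-like minus neutrophil-like difference on the log2 scale was -2.74 for Mthfd1l, -1.93 for Ahcy, -1.72 for Shmt2, -1.11 for Mthfd2, -1.07 for Shmt1, -0.97 for Tyms and -0.85 for Mat2a. Mthfd1l, Mthfd2 and Mat2a were called in all 8 fits, Shmt2 in 6, Ahcy in 5, and Shmt1 and Tyms in 4. Non-cycling neutrophil-like cells with UMIs numbered 0 to 4 per library for Ahcy, 0 to 7 for Shmt2, 3 to 6 for Shmt1 and 5 to 18 for Tyms. The sizes of the differences of these genes rest on such low counts. The median depth gap between cycling and non-cycling cells was also wider in neutrophil-like cells (18918.5 to 20663 UMIs in cycling against 6930 to 8598.5 in non-cycling cells) than in monocyte-like cells (15569 to 18593.5 in cycling against 9335 to 10797 in non-cycling cells), and with cells thinned to 3000 UMIs the difference of Tyms was 0.55 in place of -0.97. The cycling state was gated again on the thinned counts, so thinning changed the cells of each state together with the depth. In B12+Butyrate neutrophil-like cells it left 1627 cycling and 2140 non-cycling cells, in place of 2255 and 1880. The part of depth alone in these differences was therefore not tested. No group of 4 or more replicate samples existed in which a single sample could be set against the rest.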

How the results depend on the processing

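No paired analysis was possible because each treatment is 1 library, and the library served as a block between cell states instead. With cells thinned to 3000 UMIs, fewer genes were called: 4899 in place of 7731 in monocyte-like, 1762 in place of 4423 in B-lineage-like and 118 in place of 1374 in HSC/MPP-like cells for cycling against non-cycling, 3546 in place of 8338, 1608 in place of 6199 and 54 in place of 1445 for S phase against G2/M in neutrophil-like, monocyte-like and GMP-like cells, and 5463 in place of 8469 for the difference between classes. Members called were then 1 in B-lineage-like and 0 in HSC/MPP-like cells, 4 in monocyte-like and 1 in GMP-like cells for S phase, and 3 for the difference between classes. Without called doublets B-lineage-like cells had 2698 genes and 3 members called. DESeq2 called 504 genes and 1 member in HSC/MPP-like cells, and 594 genes and 3 members in GMP-like cells for S phase. Without a filter on low counts 5 HSC/MPP-like members were called, and 1 with the stricter barcode filter. The main fit called 3 of 6 HSC/MPP-like members as higher, beside 21.0% of 6539 genes tested in either direction. Shares of all genes called in these 2 other fits are not given here, so their member counts do not set the members apart. Leaving out each library gave 805 to 1065 genes in GMP-like cells for S phase and 4 to 7 members for the difference between classes. The main fit of that difference called 7 of 8 members and 62.6% of 13519 genes tested. The cause of these shifts was not tested.

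Directions changed for Mat2a in monocyte-like cells (0.020 with total UMIs, and -0.062 to 0.023 when each library was left out, with the highest value without B12). In HSC/MPP-like cells Mat2a was at 0.11 without a filter on low counts, 0.046 with the gate of 2 UMIs, 0.057 thinned, and -0.13 to 0.15 when each library was left out, with the highest value without Control. They also changed for Ahcy in GMP-like cells for S phase (-0.013 to 0.31 when each library was left out, with the lowest value without B12), for the thinned difference between classes of Mthfd1 (0.40) and Tyms (0.55), and for Ahcy in HSC/MPP-like cells for B12+Butyrate against B12 (-0.68 thinned, a value from few UMIs). Pairs past the treatment size were 7 with a pseudocount of 1 CPM and 6 thinned for B12 against Control, 6 and 7 for Butyrate against Control, and 5 and 6 for B12+Butyrate against B12. The shares of all genes past this size were not counted under these settings, so these numbers do not set the members apart from other genes. With the share of cycling cells held fixed, which could be done only in neutrophil-like and monocyte-like cells, 0 pairs passed it in each of the 4 comparisons, as without. Of the single member values, 282 of 302 for cycling, 79 of 87 for S phase, 16 of 24 for the difference between classes and 38 of 44 for treatments kept their direction and their side of the threshold (treatments: stayed within counting error) under settings other than leaving out a library, and 98 of 106, 91 of 96 and 25 of 32 of the first 3 kinds did so when a library was left out. Fits in which a member did not pass the count filter or had no adjusted p are not in these counts. Mthfd2 and Ahcy in HSC/MPP-like cells are also not in them, because the main fit had no value for either. Low counts limit Ahcy, Shmt1 and Shmt2 in non-cycling neutrophil-like cells and every HSC/MPP-like value.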
